A study of Homo sapiens with 18 samples.

Results

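The genes described here are 31 targets of the transcription factor NRF2 and other antioxidant genes, taken by symbol from a list of gene names out of the 43236 gene symbols of the count table. They make and recycle glutathione and thioredoxin, supply NADPH through the pentose phosphate pathway, store iron and break down haem, detoxify reactive compounds, or pump conjugates out of the cell. All 31 symbols were in the table, and 27 passed the filter on low counts and were tested. The other 4 were nearly silent in these cells. AKR1C1 held 2 to 14 counts per library, AKR1C2 0 to 9, GPX2 0 to 7 and AKR1B10 0 to 2.

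NRF2, encoded by NFE2L2, is the main inducer of the cell's defence against oxidants and electrophiles. In resting cells the adaptor KEAP1 binds NRF2 and passes it to a CUL3 ubiquitin ligase for degradation. When oxidants or electrophiles modify KEAP1, or when KEAP1 or NFE2L2 is mutated as in many lung cancers, NRF2 pairs with a small MAF protein and binds antioxidant response elements near its targets.

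The cells were NCI-H1693, a human cell line of non-small cell lung cancer, labelled as SMARCA4-deficient. They were kept in 50 nM PRT3789, a degrader selective for SMARCA2, or in its solvent DMSO, for 6, 48 or 72 h, with 3 libraries in each of the 6 groups. A SWI/SNF complex, which moves nucleosomes, runs on either SMARCA2 or SMARCA4 as its motor, and all groups share the SMARCA4 deficiency of the line. The design asks how messenger RNA changes when SMARCA2 is degraded, at an early time and at 2 later ones. All groups come from 1 line, and the labels do not say whether replicates were separate cultures, so p-values measure only the spread between these libraries, which may be technical.

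Library totals ran from 23154484 to 31094797 counts, with 14743 to 15677 genes per library at 10 counts or more. The degrader acts on SMARCA2 protein, so its transcript does not check the labels. SMARCA2 was at 32.8 to 49.9 CPM (counts relative to the TMM-scaled library total) in all libraries, with a log2 fold change of 0.04 at 6 h, -0.19 at 48 h and -0.44 at 72 h (adjusted p 0.896, 0.126 and 0.00108). All 5 epithelial markers were detected in every library. Their summed level was 8645 to 9997 CPM in DMSO against 7999 to 9058 in PRT3789 for 6 h, 10210 to 11008 against 4659 to 4906 for 48 h, and 9147 to 9900 against 4115 to 4330 for 72 h. Most of each sum was KRT8 (1758 to 5314 CPM over all libraries) and KRT18 (1291 to 4313). EPCAM ranged from 559 to 930 CPM, KRT19 from 297 to 442 and CDH1 from 125 to 346. Of 5 fibroblast markers, LUM (61.5 to 128.1 CPM) and COL1A1 (11.7 to 24.7 CPM) were expressed and COL1A2 and DCN were at 0 in some libraries. The list summed at 6 h to 126.0 to 142.7 CPM in DMSO against 118.9 to 137.0 with PRT3789, at 48 h to 109.0 to 125.7 against 85.6 to 88.5, and at 72 h to 119.7 to 130.1 against 100 to 113.4. Blood markers summed to 3.76 to 16.1 CPM, nearly all of it CD68, and endothelial markers to 0.0995 to 3.36 CPM. The epithelial, fibroblast, blood and endothelial sums were all lower in PRT3789 than in DMSO at 48 and 72 h, and the part of these shifts in the results was not tested.

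The antioxidant response element has the core TGACNNNGC, which was searched on both strands in the RefSeq promoters (GRCh38.p14) from 250 bases before to 50 after the annotated start. Promoters matched 23 of the 31 genes by symbol. Of these, 7 (30.4%) held the core, against 14.2% of the 19073 promoters of genes with a count. The 7 were PGD, GCLM, ME1, TXNRD1, GPX2, CBR1 and PIR. A match in so short a window is a description and not a bound site, and many known elements lie farther away. The 5 windows below belong to tested genes whose core lay upstream of the start, and are shown to set genes that fell in PRT3789 (PGD, ME1, CBR1) beside genes that passed no test against DMSO (GCLM, TXNRD1). Each reads 5′ to 3′ along the gene's strand, with the 9 bases of the core, or its reverse complement, in capitals.
PGD (chr1:10398843-10398891, plus strand): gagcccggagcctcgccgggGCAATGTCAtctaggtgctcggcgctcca
ME1 (chr6:83431160-83431208, minus strand): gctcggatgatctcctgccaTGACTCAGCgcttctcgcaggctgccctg
CBR1 (chr21:36069845-36069893, plus strand): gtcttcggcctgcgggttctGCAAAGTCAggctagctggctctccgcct
GCLM (chr1:93909436-93909484, minus strand): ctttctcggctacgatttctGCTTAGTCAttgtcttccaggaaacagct
TXNRD1 (chr12:104215660-104215708, plus strand): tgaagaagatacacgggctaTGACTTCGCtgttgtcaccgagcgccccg

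In the windows shown, the core stood in the sense direction in ME1 and TXNRD1 and in reverse in PGD, CBR1 and GCLM. Its first base lay 201 bases before the start in PGD, 159 in CBR1, 137 in ME1, 99 in TXNRD1 and 34 in GCLM. ME1 and TXNRD1 each held a further core in reverse, not shown. It began 11 bases after the start in ME1 and 8 before it in TXNRD1. Genes lower than in DMSO and genes that passed no test against DMSO thus both carried the core.

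PRT3789 did not move these genes as 1 block. Below, rose and fell at a time mean higher or lower than in DMSO at that time, unless a change with culture time is named. At 6 h, 3 of the 27 tested genes were lower than in DMSO and none was higher: TRIM16, TRIM16L and OSGIN1. No other member was called at 6 h under any alternative run, DESeq2 and limma-voom included. In edgeR 4 of the 27 had an unadjusted p under 0.05 at 6 h, against 2365 of all 16291 genes tested. At 48 h, 13 were lower and 2 higher, and at 72 h 12 were lower and 4 higher. Lower at both of these times were 11 genes: PGD, TKT, TALDO1 and ME1, which supply NADPH, the ferritin heavy chain gene FTH1, the haem carrier gene SLC48A1, TRIM16, TRIM16L and OSGIN1, and the reductase genes CBR1 and AKR1C3. The share of all genes lower at both times is not given here, so this overlap is not a finding about these genes. CBR3 and PRDX1 were called lower at 48 h but not at 72 h, and ABCC1 at 72 h but not at 48 h. Those higher than in DMSO at 72 h were NQO1, HMOX1, EPHX1 and FTL. The 3 tested glutathione genes were not called against DMSO at any of the 3 times in the fit of all 18 libraries.

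The shares were read against all 16291 genes tested. A gene was called at an adjusted p under 0.05 in edgeR's quasi-likelihood test with Benjamini-Hochberg adjustment over all genes. At 6 h, 3 of 27 genes (11.1%) were called, against 4.33% of all genes (1.28% higher and 3.04% lower). At 48 h the count was 15 of 27 (55.6%) against 42.1% of all genes, of which 21.2% were higher and 20.9% lower. At 72 h it was 16 of 27 (59.3%) against 43.4%, of which 21.3% were higher and 22% lower. The total was thus close to the background at the later times, while the split leaned to lower values. The median log2 fold change of the 27 genes was -0.096 at 6 h, -0.281 at 48 h and -0.225 at 72 h, against -0.0078, 0.0144 and 0.0103 over all genes. With a change of at least 1.5-fold also required, 3, 9 and 9 of the 27 were called at 6, 48 and 72 h, against 2.2%, 21.4% and 23.6% of all genes. In bulk libraries, fewer cells of a type and less RNA per cell cannot be told apart.

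**Figure D1:**
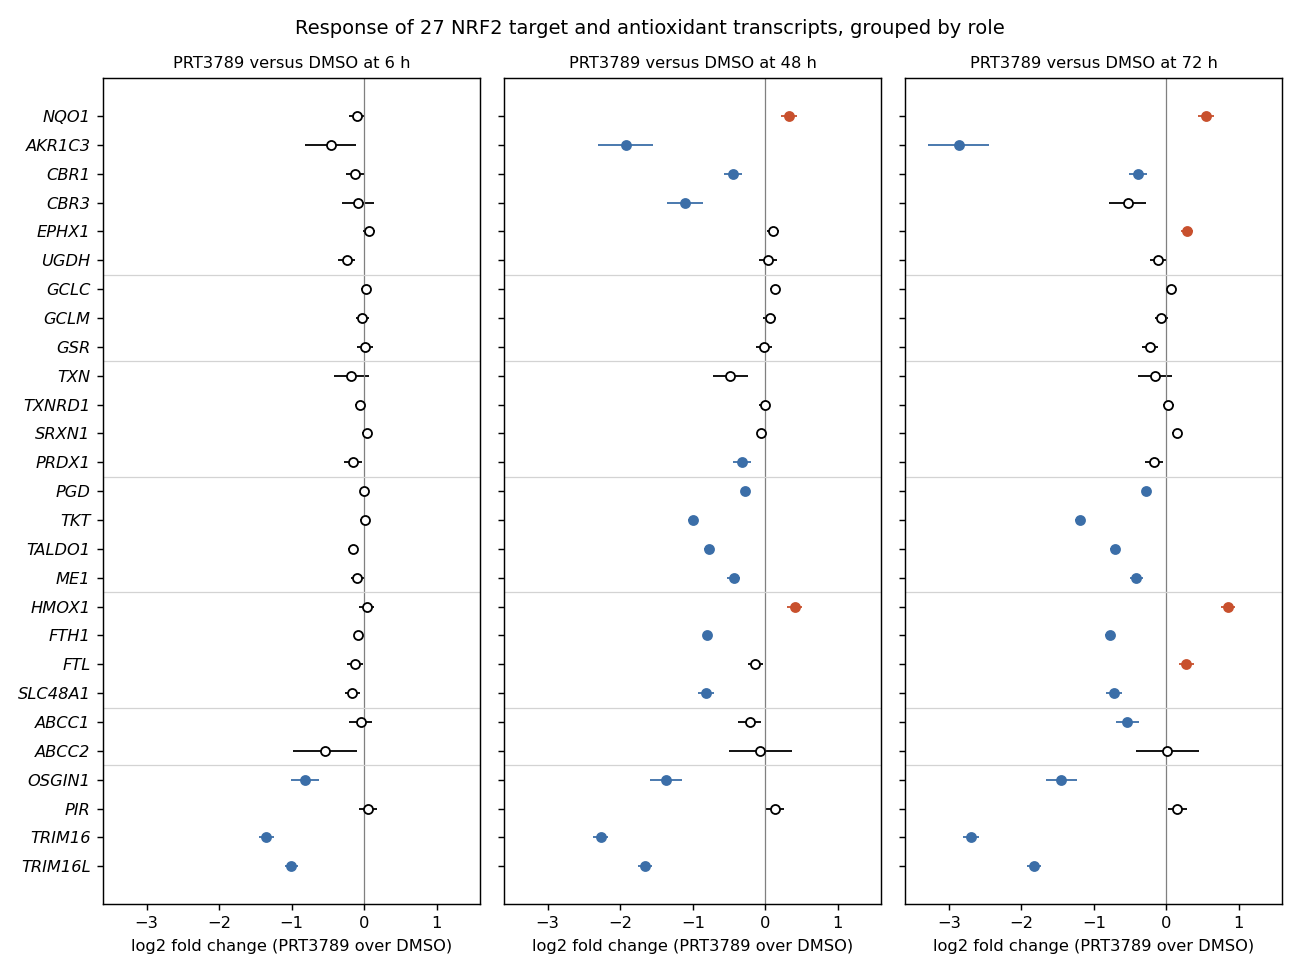
Log2 fold change (PRT3789 over DMSO) of the 27 tested genes at 6, 48 and 72 h, with bars of 1 standard error, in rows grouped by role from detoxifying enzymes at the top to TRIM16 and TRIM16L at the bottom. Blue points are genes called lower, red points genes called higher and open points genes that passed no test; the blue points grow from 3 at 6 h to 13 at 48 h and 12 at 72 h.

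TRIM16, a tripartite-motif protein known as an NRF2 partner in stress responses, fell at each time and was among the earliest to respond. TRIM16 (chromosome 17, 15627966 to 15684311, GRCh38.p14) stood at 57.8, 44.01 and 46.3 CPM in the DMSO libraries of 6 h and at 19.1, 21.7 and 17.3 CPM in those with PRT3789. At 48 h it stood at 79.3, 69.8 and 70.7 CPM in DMSO and at 16.7, 14.1 and 14.7 CPM in PRT3789. At 72 h the values were 80.1, 77.5 and 84.1 CPM in DMSO and 13.3, 12.1 and 12.1 CPM in PRT3789. Treated and control libraries lay far apart at every time, with a wider gap at 48 h than at 6 h. The level was 2.55-fold lower at 6 h, 4.83-fold lower at 48 h and 6.45-fold lower at 72 h, with log2 fold changes of -1.35, -2.27 and -2.69 (SE 0.11 each, adjusted p 3.24e-07, 2.67e-11 and 2.89e-12).

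TRIM16L, a shorter TRIM16-like gene on the same chromosome (18697998 to 18736112), followed with smaller changes. In DMSO it stood at 33.6, 28.9 and 27.3 CPM at 6 h, and in PRT3789 at 14.9, 16.1 and 13.9 CPM. At 48 h the libraries held 27.2, 26.0 and 26.0 CPM in DMSO and 8.96, 8.08 and 8.12 CPM in PRT3789. At 72 h they held 27.7, 23.2 and 27.2 CPM in DMSO and 7.6, 7.55 and 6.99 CPM in PRT3789. No treated library reached the lowest control library at any time. Log2 fold changes came to -1.0, -1.65 and -1.82 (SE 0.09, 0.10 and 0.10, adjusted p 2.18e-06, 3.41e-10 and 8.88e-11). The assignment of reads to both genes is uncertain, since 20.7% of the 100-base windows of the TRIM16L transcript recur in TRIM16. Of the windows of TRIM16, 45.6% recur in other transcripts, and 37.7% in 1 annotated locus that is not TRIM16L. With the pair counted as 1 gene, of which TRIM16L held 30.9%, the log2 fold changes were -1.21, -2.08 and -2.42. This sum leaves that other locus out.

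OSGIN1, an NRF2 target that restrains growth under oxidative stress, was called lower at each time but is scarce. Its mean level at 6 h was 5.32 ± 0.40 CPM (SD, n = 3) in DMSO and 3.02 ± 0.56 with PRT3789. At 48 h it was 2.71 ± 0.35 against 1.05 ± 0.30 CPM, and at 72 h 3.15 ± 0.46 against 1.15 ± 0.25 CPM. The ranges of the treated and control libraries did not overlap at any time. Its log2 fold changes were -0.82 (SE 0.19, adjusted p 0.0197), -1.37 (SE 0.22, 8.24e-05) and -1.45 (SE 0.22, 2.86e-05). The call at 6 h ended without DMSO replicate 2 or 3 or PRT3789 replicate 1 or 3 of that time (adjusted p 0.0558 to 0.0942) and with the 6 h libraries fitted apart (0.116). PIR, an iron-binding nuclear protein, stood at 27.9 to 40.3 CPM in the group means, with log2 fold changes of 0.05, 0.13 and 0.15 that were not called. The value at 48 h was called with the length trend removed (0.25, adjusted p 0.00467).

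**Figure D2:**
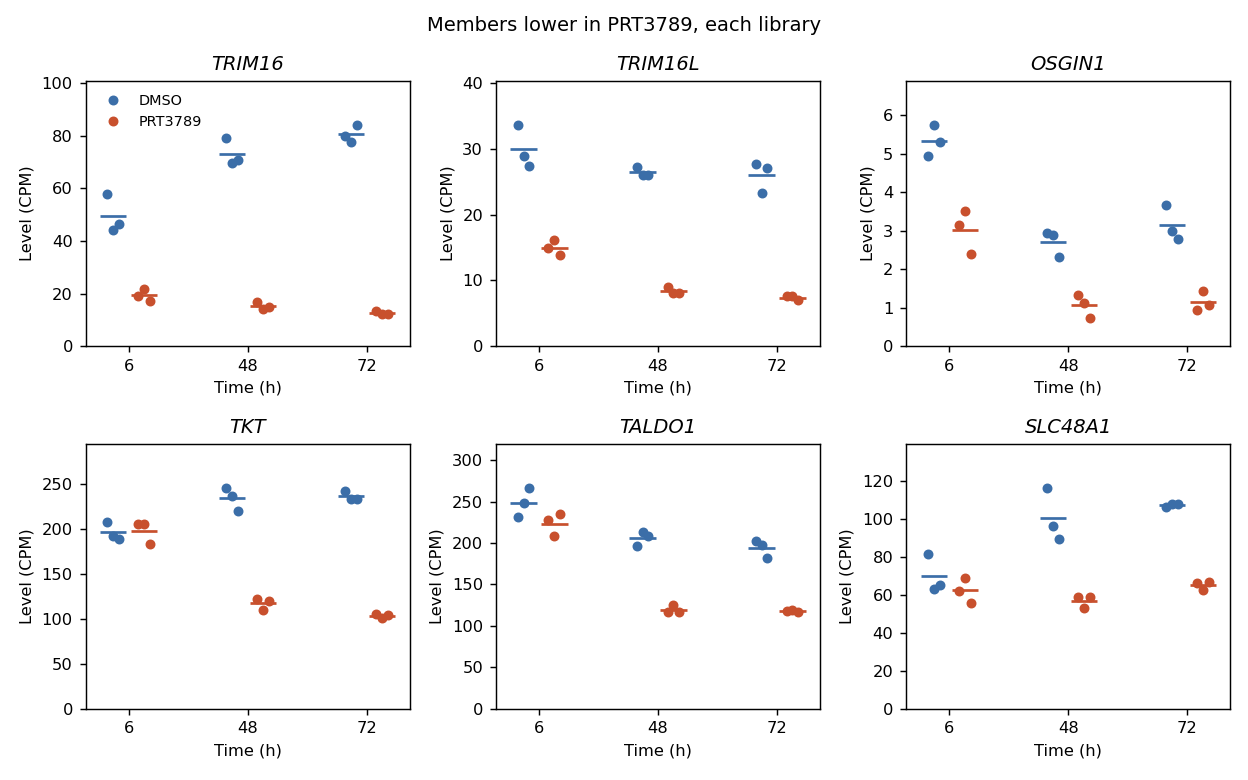
Level in CPM (vertical axis, from 0) of TRIM16, TRIM16L, OSGIN1, TKT, TALDO1 and SLC48A1 in each library at 6, 48 and 72 h; points are libraries, bars are the means of 3, blue is DMSO and red PRT3789. In TRIM16, TRIM16L and OSGIN1 the treated points lie below all controls already at 6 h, while those of TKT, TALDO1 and SLC48A1 overlap the controls at 6 h and lie below them at 48 and 72 h.

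The genes of the pentose phosphate pathway and NADPH supply formed the group with a uniform direction: all 4 were lower at 48 h and at 72 h, and none was called at 6 h. Their median log2 fold change was -0.047 at 6 h, -0.608 at 48 h and -0.566 at 72 h. TKT encodes transketolase and TALDO1 transaldolase, which shuttle carbon units between sugar phosphates in the non-oxidative branch. PGD encodes the 6-phosphogluconate dehydrogenase of the NADPH-yielding oxidative branch, and ME1 the cytosolic malic enzyme, which also yields NADPH.

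TKT (chromosome 3, 53224712 to 53256022) changed most of the 4. At 6 h it stood at 207.4, 192.0 and 188.2 CPM in DMSO and at 205.5, 205.3 and 182.7 CPM in PRT3789, which overlapped. At 48 h the values were 245.1, 236.2 and 219.8 CPM in DMSO against 121.4, 109.5 and 119.6 CPM in PRT3789. At 72 h they were 242.2, 232.3 and 232.7 CPM against 104.9, 100.2 and 103.9 CPM. Controls and treated libraries thus separated after 6 h, by 2.00-fold at 48 h and 2.29-fold at 72 h. On the log2 scale the changes were 0.01, -1.0 and -1.19 (SE 0.07 each), with adjusted p of 0.953, 2.25e-09 and 2.02e-10.

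TALDO1 (chromosome 11, 747464 to 765012) followed the same course with a smaller change. At 6 h it stood at 230.9, 248.6 and 266.6 CPM in DMSO and at 227.5, 208.1 and 234.8 CPM in PRT3789. At 48 h the libraries held 196.1, 213.2 and 208.3 CPM in DMSO and 116.5, 125.5 and 117.0 CPM in PRT3789. At 72 h they held 202.0, 198.2 and 181.8 CPM in DMSO and 118.0, 119.5 and 117.0 CPM in PRT3789. The groups overlapped at 6 h and lay apart later. These were log2 changes of -0.15, -0.78 and -0.71 (SE 0.07 each, adjusted p 0.296, 6.84e-08 and 1.77e-07).

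PGD (chromosome 1, 10399064 to 10420511) differed by less, in libraries that lay close together. At 6 h it stood at 195.7, 194.8 and 187.1 CPM in DMSO and at 193.8, 197.9 and 186.8 CPM in PRT3789. At 48 h DMSO held 238.8, 220.0 and 221.1 CPM and PRT3789 189.5, 185.2 and 184.9 CPM. At 72 h DMSO held 248.2, 229.4 and 229.8 CPM and PRT3789 195.8, 191.7 and 192.3 CPM. The treated level at 48 h passed no test against that at 6 h, while the DMSO level was higher at 48 h than at 6 h. The log2 fold changes were 0.00, -0.28 and -0.29 (SE 0.06 each, adjusted p 0.991, 0.000548 and 0.00039). ME1 had group means of 53.2 ± 6.5 and 49.7 ± 3.6 CPM in DMSO and PRT3789 at 6 h, 57.2 ± 5.6 and 42.3 ± 2.8 after 48 h, and for 72 h 59.1 ± 1.1 and 44.3 ± 0.27 (mean ± SD of 3 libraries each). Its log2 fold changes were -0.10, -0.43 and -0.42 (SE 0.09 each, adjusted p 0.715, 8e-04 and 0.000974).

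RPIA and PGLS, enzymes of the same pathway, are not among the 31 but were on the list of further glutathione and NADPH genes and were picked out after their values were seen. RPIA, which converts ribulose phosphate to ribose phosphate, was lower at 48 h (-0.27, adjusted p 0.0121) and at 72 h (-0.36, 0.0013). PGLS, the lactonase of the oxidative branch, went the other way, with 0.21 at 48 h (adjusted p 0.0188) and 0.40 at 72 h (0.000111).

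Among the haem and iron genes the ferritin chains parted. The heavy chain gene FTH1 fell at 48 and 72 h, while the light chain gene FTL passed no test at 48 h and was higher at 72 h. HMOX1, the inducible haem oxygenase that opens the haem ring and frees its iron, rose at both later times. SLC48A1, which carries haem from the endolysosome to the cytosol, fell. None of the 4 was called at 6 h, where their median log2 fold change was -0.106, and it was -0.470 at 48 h and -0.225 at 72 h.

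FTH1 (chromosome 11, 61964285 to 61967634) stood at 2046, 1903 and 1995 CPM in DMSO and at 1839, 1874 and 1887 CPM in PRT3789 at 6 h. At 48 h it stood at 1972, 1859 and 1848 CPM in DMSO and at 1077, 1084 and 1097 CPM in PRT3789. At 72 h the libraries held 1790, 1635 and 1599 CPM in DMSO and 988.9, 939.3 and 993.3 CPM in PRT3789. The treated libraries lay just below the controls at 6 h and far below them later. As log2 fold changes these were -0.09, -0.80 and -0.78 (SE 0.06 each, adjusted p 0.615, 1.45e-08 and 1.64e-08). Of the 100-base windows of FTH1, 20.7% recur in other transcripts, processed copies among them, and the copy with a symbol in the table held 18 counts against 776165 for FTH1 itself.

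FTL had group means at 6 h of 1017 ± 148 CPM in DMSO and 932 ± 115 in PRT3789, followed by 919 ± 68 and 836 ± 38 after 48 h, and for 72 h 750 ± 69 and 907 ± 9.7 (mean ± SD of 3 libraries each). Its log2 fold change was -0.14 at 48 h (SE 0.11, adjusted p 0.314) and 0.27 at 72 h (SE 0.11, adjusted p 0.0446). The call at 72 h is weak. It ended without any 1 of DMSO replicates 2 and 3 or PRT3789 replicates 1, 2 and 3 of that time (adjusted p 0.0685 to 0.165), without DMSO replicate 2 or PRT3789 replicate 1 of 6 h or DMSO replicate 2 or 3 of 48 h (0.0523 to 0.0568), with DESeq2's size factors (0.0531) and without the filter (0.0578).

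The count ratio of FTH1 to FTL, a measure chosen after the values were seen, put both chains on 1 scale. At 6 h it was 1.98 ± 0.36 in DMSO and 2.02 ± 0.23 in PRT3789, followed by 2.07 ± 0.24 and 1.30 ± 0.059 after 48 h, and for 72 h 2.24 ± 0.11 and 1.07 ± 0.022 (mean ± SD of 3 libraries each). The groups overlapped at 6 h and lay apart at 48 and 72 h. The log2 difference was -0.67 at 48 h and -1.06 at 72 h, each with an exact two-sided permutation p of 0.10, the smallest that 3 against 3 libraries allow, and 0.04 at 6 h (exact permutation p = 0.90). A ratio of raw counts shows unequal change of the chains, not which chain moved.

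HMOX1 (chromosome 22, 35381096 to 35394207) was a low-level gene. At 6 h it stood at 10.9, 13.6 and 13.3 CPM in DMSO and at 11.9, 12.2 and 14.6 CPM in PRT3789. At 48 h the values were 11.4, 9.55 and 10.4 CPM in DMSO and 13.0, 14.8 and 13.7 CPM in PRT3789. At 72 h they were 11.5, 10.9 and 10.6 CPM in DMSO and 19.2, 20.8 and 19.5 CPM in PRT3789. Treated libraries lay above all controls at 48 and 72 h, by 1.33-fold and 1.80-fold. The log2 fold changes were 0.03, 0.41 and 0.85 (SE 0.10 each, adjusted p 0.93, 0.00408 and 2.33e-06).

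SLC48A1 (chromosome 12, 47753934 to 47782751) stood at 81.5, 63.2 and 65.3 CPM in DMSO and at 62.3, 69.1 and 55.9 CPM in PRT3789 at 6 h. For 48 h it stood at 116.6, 96.3 and 89.8 CPM in DMSO and at 59.1, 53.2 and 59.1 CPM in PRT3789. At 72 h it stood at 106.4, 108.2 and 108.3 CPM in DMSO and at 66.2, 62.6 and 66.7 CPM in PRT3789. As with PGD, the level rose between 6 and 48 h in DMSO, and in PRT3789 it passed no test between these times. This gave log2 fold changes of -0.16, -0.82 and -0.72 (SE 0.11 each, adjusted p 0.546, 6.74e-06 and 2.19e-05).

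**Figure D3:**
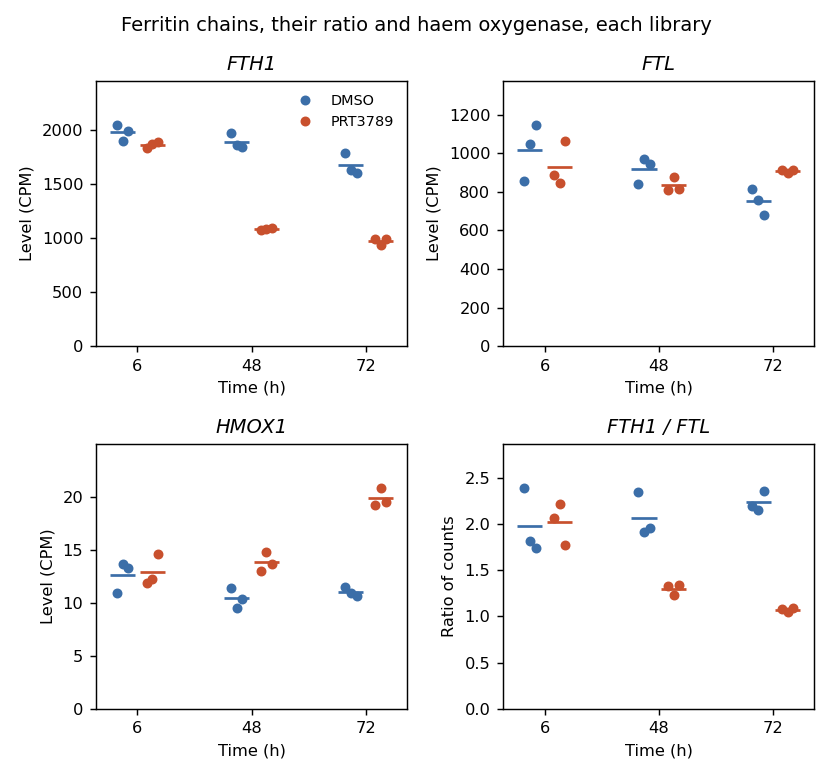
Level in CPM of FTH1, FTL and HMOX1 and the ratio of FTH1 to FTL counts in each library at 6, 48 and 72 h; points are libraries, bars means of 3, blue is DMSO and red PRT3789, and all axes start at 0. At 48 h the mean ratio is 2.07 with DMSO and 1.30 with PRT3789, and at 72 h it is 2.24 and 1.07.

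The glutathione genes passed no test against DMSO in edgeR, DESeq2 or limma-voom on all 18 libraries without a replicate block. In edgeR 0 of the 3 tested had an unadjusted p under 0.05 at any time. Of all 16291 genes tested, 2365, 8092 and 8168 had one at 6, 48 and 72 h. GCLC and GCLM encode the catalytic and modifier subunits of glutamate-cysteine ligase, which makes the first bond of glutathione, and GSR the reductase that recycles oxidised glutathione. The median log2 fold change of the 3 tested genes was 0.007 at 6 h, 0.061 at 48 h and -0.071 at 72 h. GCLC differed by 0.02, 0.13 and 0.06 (SE 0.06 each) and GCLM by -0.02, 0.06 and -0.07 (SE 0.09 each) on the log2 scale at the 3 times. Both pairs of groups lay close at each time, as the plot of glutathione and thioredoxin genes shows.

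GSR, the highest of the glutathione genes, stood at 234.1, 188.5 and 184.0 CPM in DMSO and at 216.6, 227.5 and 165.5 CPM in PRT3789 at 6 h. The 48 h libraries held 221.4, 182.9 and 185.9 CPM in DMSO and 197.5, 192.3 and 192.0 CPM in PRT3789. At 72 h the values were 235.9, 215.8 and 242.0 CPM in DMSO and 193.6, 200.6 and 199.5 CPM in PRT3789. At 72 h the treated libraries lay below all controls, with a log2 fold change of -0.22 (SE 0.11, adjusted p 0.112). That value passed the test when the 72 h libraries were fitted apart (adjusted p 0.000316), with a replicate block within each time (0.0484) and without PRT3789 replicate 3 of 6 h (0.0466).

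Of the thioredoxin and peroxiredoxin genes, 1 of 4 was called, PRDX1 at 48 h. TXN encodes thioredoxin, TXNRD1 its reductase, PRDX1 a peroxiredoxin that thioredoxin keeps reduced, and SRXN1 the sulfiredoxin that rescues over-oxidised peroxiredoxin. The median log2 fold change was -0.104 at 6 h, -0.189 at 48 h and -0.066 at 72 h. TXNRD1 differed by -0.06, -0.01 and 0.03 (SE 0.07 each) and SRXN1 by 0.03, -0.06 and 0.15 (SE 0.06, 0.07 and 0.06). SRXN1 at 72 h (adjusted p 0.0782) passed with total counts (0.0213), with that time fitted apart (0.0287) and without DMSO replicate 3 of 48 h (0.0389). Nearly all of its windows (90.4%) recur in a second annotated locus, so its reads may be split.

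PRDX1 (chromosome 1, 45511051 to 45522890) varied widely at 6 h, with 1053, 1308 and 1532 CPM in DMSO and 1135, 983.1 and 1389 CPM in PRT3789. The values of 48 h were 880.7, 941.0 and 1032 CPM in DMSO and 767.3, 799.3 and 717.7 CPM in PRT3789. At 72 h it stood at 859.3, 858.8 and 784.3 CPM in DMSO and at 757.4, 721.1 and 738.9 CPM in PRT3789. Treated libraries lay below the controls at 48 and 72 h. The log2 fold change was -0.32 at 48 h (SE 0.12, adjusted p 0.0458) and -0.17 at 72 h (SE 0.12, 0.276). The call at 48 h ended without DMSO replicate 2 or 3 or PRT3789 replicate 1, 2 or 3 of that time (adjusted p 0.0505 to 0.159), without PRT3789 replicate 1 of 6 h (0.0545) or DMSO replicate 1 of 72 h (0.0552), and with total counts (0.0609). With the 72 h libraries fitted apart the value at 72 h passed as well (-0.18, adjusted p 0.00219), as it did with the length trend removed (-0.18, 0.0093).

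TXN has the shortest transcript of the tested genes and a wide spread at 6 h: 146.2, 253.7 and 322.7 CPM in DMSO and 190.9, 150.8 and 297.0 CPM in PRT3789. At 6 h the deviations of a library from its time's mean followed transcript length, with Spearman correlations across 15005 genes of 0.507, -0.357 and -0.462 in the DMSO libraries and 0.281, 0.456 and -0.483 in PRT3789. The 6 h libraries with a positive correlation held the least TXN of their group. By 48 h the correlations were 0.034, -0.307 and -0.219 in DMSO and 0.207, 0.127 and 0.202 in PRT3789, so the trend ran with treatment. At 72 h the signs were mixed in both groups. No member called against DMSO at 48 h lost its call with the length trend removed. At 48 h, TXN was 127 ± 16 CPM in DMSO and 91.2 ± 7.4 in PRT3789 (SD, n = 3 each), a log2 fold change of -0.48 (SE 0.24, adjusted p 0.118). This passed with the length trend removed (-0.32, adjusted p 0.0274), with that time fitted apart (-0.50, 0.000479), with a replicate block within each time (0.0461) and without DMSO replicate 1 of 6 h (0.0477).

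**Figure D4:**
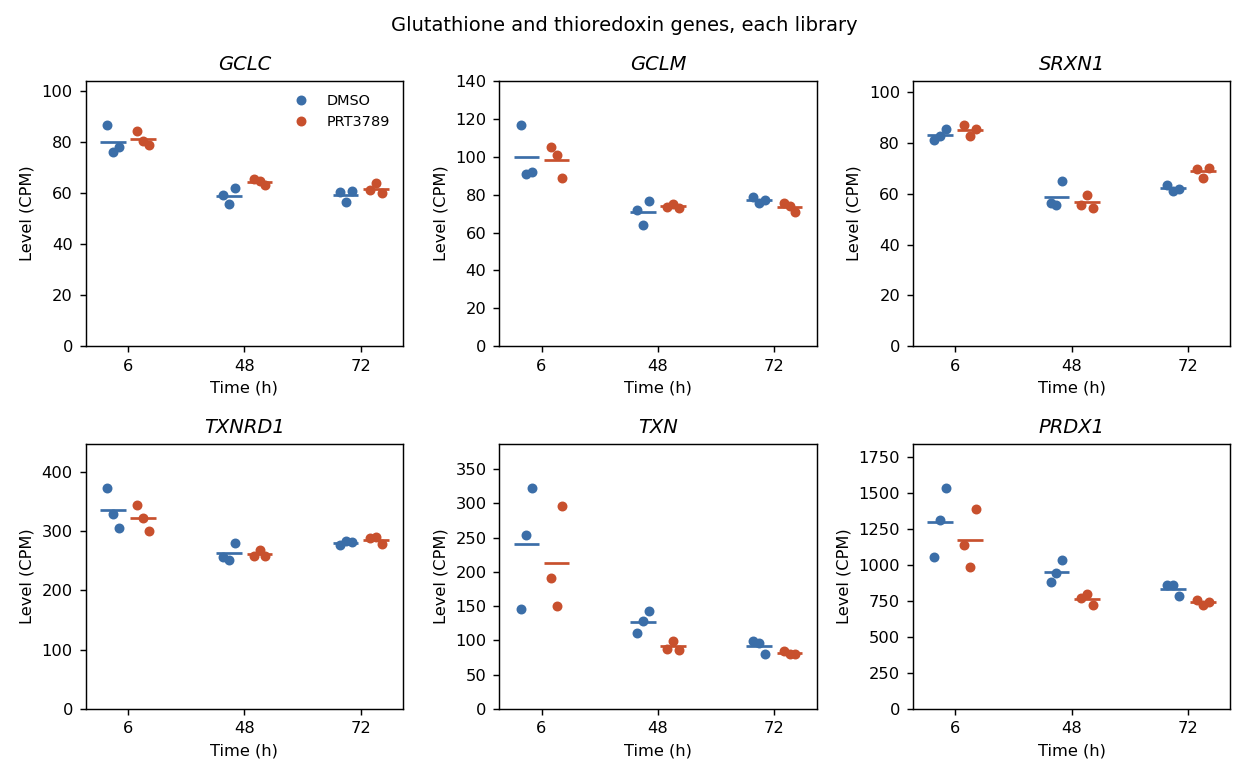
Level in CPM (vertical axis, from 0) of GCLC, GCLM, SRXN1, TXNRD1, TXN and PRDX1 in each library at 6, 48 and 72 h; points are libraries, bars means of 3, blue is DMSO and red PRT3789. All 6 genes stand lower at 48 h than at 6 h in both treatments, and within a time only PRDX1 at 48 h was called between treatments.

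Detoxifying enzymes went both ways. NQO1, the quinone reductase that serves as the standard readout of NRF2 activity, was higher than in DMSO at 48 and 72 h. The carbonyl reductase gene CBR1 and the aldo-keto reductase gene AKR1C3 fell at both times. CBR3, a second carbonyl reductase gene, fell at 48 h, and EPHX1, an epoxide hydrolase, rose at 72 h. UGDH, which makes the sugar donor for glucuronidation, was not called against DMSO at any time, with log2 fold changes of -0.24, 0.04 and -0.11. The median log2 fold change of the 6 tested genes was -0.116 at 6 h, -0.202 at 48 h and -0.249 at 72 h.

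NQO1 (chromosome 16, 69709401 to 69726560) stood at 173.8, 212.2 and 249.7 CPM in DMSO and at 195.1, 170.2 and 227.2 CPM in PRT3789 at 6 h. By 48 h it stood at 158.2, 171.3 and 191.2 CPM in DMSO and at 211.5, 225.3 and 213.9 CPM in PRT3789. At 72 h it stood at 143.2, 141.5 and 134.3 CPM in DMSO and at 204.7, 204.4 and 201.2 CPM in PRT3789. Treated libraries lay above all controls at 48 and 72 h. The PRT3789 level at 48 h passed no test against 6 h (log2 difference 0.14, adjusted p 0.32), but did with total counts (0.25, 0.0398). The DMSO level at 48 h passed no test against 6 h (-0.29, adjusted p 0.0542), but did in some alternative runs (0.00506 to 0.0428). The DMSO level at 72 h passed no test against 48 h (-0.31, adjusted p 0.168), but did with those times fitted apart (-0.32, 0.00205). Against DMSO, the log2 fold change was -0.10 at 6 h (SE 0.11, adjusted p 0.768), 0.32 at 48 h (SE 0.11, 0.0294) and 0.54 at 72 h (SE 0.11, 0.000777). The call at 48 h ended without DMSO replicate 1 or 2 or PRT3789 replicate 1, 2 or 3 of that time (adjusted p 0.0588 to 0.113), while that at 72 h held under every alternative run.

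AKR1C3 and CBR3 are scarce, and their values are given although they lie under the 5 CPM asked of genes shown in full. AKR1C3 at 48 h stood at 2.52 ± 0.34 CPM in DMSO and 0.671 ± 0.21 with PRT3789, and for 72 h the means were 2.38 ± 0.67 and 0.324 ± 0.29 (SD, n = 3 each). The log2 fold changes were -1.92 (SE 0.38, adjusted p 0.000527) and -2.86 (SE 0.42, 2.19e-05). The size at 72 h turns on PRT3789 replicate 3, which held 19 AKR1C3 counts against 5 and 4 in the other treated libraries: without it the log2 fold change was -3.90, and over all alternatives it ran from -3.90 to -2.49. CBR3 stood at 2.16 ± 0.33 and 1.01 ± 0.27 CPM at 48 h, a log2 fold change of -1.11 (SE 0.25, adjusted p 0.00168), and at 72 h its change was -0.53 (SE 0.25, adjusted p 0.10). CBR1, at 39.2 ± 3.1 and 28.8 ± 1.7 CPM at 48 h, changed by -0.44 (SE 0.13, adjusted p 0.009) and at 72 h by -0.39 (SE 0.13, 0.0188). Without PRT3789 replicate 3 of 72 h the latter was -0.35 with an adjusted p of 0.065. Of its windows, 25.4% recur in another annotated locus. EPHX1 stood at 53.3 ± 0.71 and 65.0 ± 2.0 CPM at 72 h, a log2 fold change of 0.29 (SE 0.08, adjusted p 0.00826) that ended with the length trend removed (0.27, 0.0609). At 48 h its change was 0.11 (adjusted p 0.303), and 0.21 (0.0424) without DMSO replicate 1 of that time.

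Of the exporters, ABCC1 and ABCC2 encode the multidrug resistance proteins that pump glutathione conjugates. ABCC1 (chromosome 16, 15949143 to 16143053) stood at 53.5, 36.1 and 34.3 CPM in DMSO and at 41.4, 47.9 and 30.8 CPM in PRT3789 at 6 h. At 48 h it stood at 74.5, 61.7 and 58.4 CPM in DMSO and at 57.9, 53.5 and 56.2 CPM in PRT3789. At 72 h it stood at 84.2, 81.2 and 91.5 CPM in DMSO and at 62.6, 57.9 and 56.4 CPM in PRT3789. The groups overlapped at 6 h and lay apart at 72 h. The log2 fold change was -0.05 at 6 h (SE 0.16), -0.22 at 48 h (SE 0.16, adjusted p 0.281) and -0.54 at 72 h (SE 0.15, adjusted p 0.00908). At 48 h it passed with the length trend removed (-0.35, adjusted p 0.00453) and with that time fitted apart (-0.23, 0.0491). ABCC2 was under 1.33 CPM in every library of 48 and 72 h and passed no test. The median of the 2 exporters was -0.295, -0.143 and -0.264 at the 3 times.

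The treatment effect itself changed between 6 and 48 h in 8 of the 27 genes, all toward lower values, by the interaction test. Over all genes 19.2% changed, 8.83% upward and 10.4% downward. The 8 were TKT (-1.01, adjusted p 6.23e-07), CBR3 (-1.02, 0.0404), TRIM16 (-0.92, 0.000238), FTH1 (-0.72, 1.45e-05), SLC48A1 (-0.65, 0.00458), TRIM16L (-0.65, 0.00183), TALDO1 (-0.63, 0.000154) and PGD (-0.28, 0.0168), as log2 changes of effect. The median over the 27 genes was -0.171, against 0.0201 over all genes. With the length trend removed, 13 were called, 2 of them upward (NQO1 and HMOX1). The share of all genes called in that run is not given here. Between 48 and 72 h edgeR called none of the 27 and 0 of all 16291 genes. Of the 27, 4 had an unadjusted p under 0.05 in edgeR (HMOX1, FTL, TRIM16 and SRXN1), against 1476 of all 16291 genes. DESeq2 and limma-voom called none of the 27, and with those times fitted apart FTL was called (0.42, adjusted p 0.033).

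Several genes that passed no test against DMSO changed with time in culture. In DMSO, 9 of 27 were lower and 6 higher at 48 h than at 6 h, against 37.2% of all genes called (20.1% lower and 17.1% higher). At 1.5-fold or more, 3 of the 27 were called, against 15% of all genes. All 4 thioredoxin and peroxiredoxin genes and both glutamate-cysteine ligase genes were among the lower. GCLC fell by 0.44 on the log2 scale (adjusted p 5.33e-05), GCLM by 0.50 (0.000435), SRXN1 by 0.50 (1.71e-05), TXNRD1 by 0.35 (0.00123), PRDX1 by 0.45 (0.0092) and TXN by 0.92 (0.00659). The calls of TXN and PRDX1 ended without DMSO replicate 3 of 6 h (-0.63, adjusted p 0.0593, and -0.29, 0.0827). OSGIN1 fell by 0.97 (adjusted p 0.00099). ABCC1 (0.65), TRIM16 (0.57), SLC48A1 (0.53), EPHX1 (0.28), TKT (0.25) and PGD (0.24) rose in DMSO, with adjusted p of 0.000358 to 0.0125. The call of EPHX1 ended without DMSO replicate 1 of 48 h (0.18, adjusted p 0.0917). TALDO1 (-0.27) and HMOX1 (-0.28, adjusted p 0.0468) were called lower, but HMOX1 lost its call under 22 alternatives and TALDO1 with total counts (-0.16, 0.0557) or with the length trend removed (-0.05, 0.56).

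In PRT3789, a comparison added after the data were seen, 16 of 27 were lower and 3 higher at 48 h than at 6 h, against 56.7% of all genes called (28.8% lower and 28% higher). At 1.5-fold or more it was 10 of 27, against 32.7% of all genes. GCLC (-0.33, adjusted p 0.000301), GCLM (-0.41, 0.000939), TXN (-1.22, 0.000416), SRXN1 (-0.59, 7.92e-07), PRDX1 (-0.62, 0.000428) and TXNRD1 (-0.30, 0.00188) fell here too, the last not with total counts (-0.19, 0.0728). Of the 9 genes lower in DMSO and the 16 lower in PRT3789, 8 were the same. The share of all genes lower in both is not given here, so this overlap is not a finding about these genes. FTH1 (-0.78), TKT (-0.76) and TRIM16L (-0.83) fell in PRT3789 and were not called lower in DMSO. Between 48 and 72 h in DMSO none of the 27 was called in edgeR, against 0.54% of all genes. Of the 27, 5 had an unadjusted p under 0.05 in edgeR, against 3221 of all 16291 genes. DESeq2 called 1 of the 27 (FTH1), and a fit of those libraries alone called 7. The share of all genes called in these 2 runs is not given here, so these counts are not a finding about these genes.

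In DMSO, levels per kilobase of transcript spanned orders of magnitude. Per kilobase, the mean level over the DMSO libraries was highest for FTH1 (1538 CPM per kilobase), PRDX1 (1088) and FTL (1028), followed by TXN (208), TALDO1 (180.3) and PGD (96.3). TXNRD1 (75.9), TKT (74.0), NQO1 (69.4) and GSR (69.2) stood close together. HMOX1 (7.30), CBR3 (2.27), AKR1C3 (1.95), OSGIN1 (1.94) and ABCC2 (0.151) were the lowest of the tested genes. The genes lower in PRT3789 than in DMSO therefore include both the most abundant of the group and some of the scarcest.

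Of the regulators of NRF2, some were higher and others lower at the later times, while NFE2L2 itself was called at 6 h alone. NFE2L2 was lower at 6 h (-0.25, SE 0.07, adjusted p 0.0412), with means of 131 ± 6.7 CPM in DMSO and 110 ± 5.9 in PRT3789 (SD, n = 3 each), and stood at 0.02 and 0.08 at 48 and 72 h. Alternative runs were compared gene by gene for the members only, so this call near the threshold was not checked against them. KEAP1 had log2 fold changes of 0.16, 0.15 and 0.16, called at 72 h (adjusted p 0.0298). Of the 20 regulators tested, 3 were lower at 6 h, 6 higher and 4 lower at 48 h, and 9 higher and 5 lower at 72 h, with medians of 0.003, 0.066 and 0.119. These are 15%, 50% and 70% of the regulators, against 4.33%, 42.1% and 43.4% of all genes tested. NFE2, a blood-lineage relative of NRF2 that binds the same kind of element, fell from 7.29 to 0.939 CPM at 6 h (-2.95, adjusted p 1.74e-08), then from 14.5 to 0.533 by 48 h (-4.75, 2.69e-12) and from 10.8 to 0.438 by 72 h (-4.62, 4.29e-12). MAFF, a small MAF partner, stood at 10.6 CPM in DMSO and rose to 26.3 in PRT3789 at 48 h (1.31, adjusted p 4.36e-09), with 12.9 and 27.6 for 72 h (1.10, 2.92e-08). SQSTM1, the autophagy receptor that sequesters KEAP1 (0.54 at 72 h, 7.02e-07), and NFE2L1, the NRF2 relative that drives proteasome genes (0.62 at 72 h, 6.24e-06), also rose.

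Of 26 further glutathione and NADPH genes tested, 1 was lower at 6 h, 6 were higher and 8 lower at 48 h, and 7 higher and 9 lower at 72 h, with medians of -0.111, -0.030 and -0.039. SLC3A2, the heavy subunit of the cystine importer, fell at 6 h (-0.29, adjusted p 0.00441), 48 h (-1.04, 1.72e-10) and 72 h (-0.91, 7.25e-10). CHAC1, which degrades glutathione, rose at 72 h (1.4, adjusted p 1.7e-07). The microsomal glutathione transferase genes MGST1 (-1.09, 3.19e-07) and MGST2 (-1.52, 3.47e-06) fell at 48 h. SLC7A11, the transport subunit of the cystine importer and an NRF2 target, was picked out after its values were seen and differed by -0.02, -0.03 and 0.03 (adjusted p 0.96, 0.871 and 0.859).

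Of 26 further peroxide and superoxide enzymes, 1 was lower at 6 h, 1 higher and 11 lower at 48 h, and 1 higher and 9 lower at 72 h, with medians of -0.077, -0.288 and -0.198. GPX3, the secreted glutathione peroxidase (-1.17, adjusted p 1.06e-09), SESN3, a sestrin (-1.81, 7.26e-08), and TXNIP, the inhibitor of thioredoxin (-0.60, 6.95e-06), were lower at 72 h. MSRB3, a methionine sulfoxide reductase, was the gene that rose (0.50 at 48 h, 1.05e-06). Of 17 further haem, iron and ferroptosis genes, none was called at 6 h in edgeR. At an unadjusted p under 0.05 it was 3, against 2365 of all 16291 genes. Of the 17, 5 were higher and 5 lower at 48 h, and 5 higher and 7 lower at 72 h. The medians were -0.034, -0.183 and -0.080. STEAP3, an endosomal iron reductase, fell from 25.1 to 5.37 CPM at 48 h (-2.22, adjusted p 1.24e-10), and AIFM2, a suppressor of ferroptosis, fell at 72 h (-0.74, 1.66e-07). NCOA4, the receptor that delivers ferritin to autophagy, rose at 72 h (0.70, adjusted p 2.8e-06), and LPCAT3, a phospholipid acyltransferase, rose at 48 h (0.67, 2.99e-06).

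Called at 48 and 72 h, set beside 42.1% and 43.4% of all genes tested, were 53.8% and 61.5% of the further glutathione and NADPH genes, 46.2% and 38.5% of the peroxide and superoxide enzymes, 58.8% and 70.6% of the haem, iron and ferroptosis genes, and 50% and 40% of the conjugation and export genes. Of 20 further conjugation and export genes, 1 was lower at 6 h, 6 were higher and 4 lower at 48 h, and 3 higher and 5 lower at 72 h, with medians of 0.034, -0.074 and -0.098. CYP1A1, the oxidising enzyme induced through the aryl hydrocarbon receptor, fell from 9.65 to 2.38 CPM at 6 h (-2.02, adjusted p 1.65e-06) and from 3.96 to 0.578 CPM at 48 h (-2.76, 2.32e-08). SLC6A9, a glycine transporter and NRF2 target, rose at 72 h (0.96, adjusted p 1.04e-05). ABCC5, another multidrug resistance protein gene (0.50, 0.000484), and ALDH3A2, a fatty aldehyde dehydrogenase (0.30, 0.000491), rose at 48 h.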

How the data were processed

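Messenger RNA of NCI-H1693 was sequenced in 18 libraries, 3 for each of 6 groups taken from the labels. Per the series' design text and the submitters' processing notes, stranded poly(A) libraries were read as 150 bp pairs and processed with nf-core/rnaseq 3.17.0 (Trim Galore, STAR and RSEM) on GRCh38 with annotation release 110; single tool versions are not given in the sources used here. The authors deposited RSEM expected counts per gene symbol, already whole numbers. Those of DMSO replicate 3 of 48 h sum to exactly 27000000. The sources used here do not explain this total, and the library was kept. Library totals of 23154484 to 31094797 limit only counting error, since reads carry no molecular identifiers.

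The fit used edgeR 4.0.16 (R 4.3.3): filterByExpr with the 6 groups (16291 genes kept; the others held at most 0.0482% of any library's counts), TMM scaling, and robust quasi-likelihood tests (two-sided) in 1 model of all 18 libraries, with Benjamini-Hochberg adjustment over all genes of a comparison. The spread was pooled over times although the 6 h libraries varied more, and p-values of 6 h may thus come out too low. Levels are TMM-scaled CPM.

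Alternatives were DESeq2 1.42.0 size factors, total counts, no filter, a filter of 1 CPM in 3 libraries, DESeq2, limma-voom (limma 3.58.1), replicate blocks, a removed trend on transcript length (GENCODE lengths, found for 92.1% of tested genes), the times compared fitted apart, each library left out, stricter thresholds, and near-identical copies summed. The members and lists were chosen with earlier results of these data known. Every member was named; values per library were given for members called with at least 1.5-fold at any time and a mean of at least 5 CPM, or the highest of their list. Of each other list, up to 4 called genes with the smallest p were named; 1 gene is not reported here by name. No replicate pair agreed within sampling noise. Comparisons at 1 time and over time share libraries. Sequences came from the RefSeq promoter table (GRCh38.p14).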

Additional observations from a re-analysis of the deposited data

Results flagged for a closer look

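For 8 genes the effect of PRT3789 differed between 6 and 48 h by the interaction test in edgeR (log2 change of effect, Benjamini-Hochberg adjusted p over all genes). TKT changed by -1.01 (adjusted p 6.23e-07), from overlapping libraries at 6 h to a 2.00-fold difference at 48 h. FTH1 changed by -0.72 (1.45e-05), TALDO1 by -0.63 (0.000154), SLC48A1 by -0.65 (0.00458) and PGD by -0.28 (0.0168). TRIM16 changed by -0.92 (0.000238) and TRIM16L by -0.65 (0.00183), both lower already at 6 h. CBR3 changed by -1.02 (0.0404). The call of CBR3 ended without DMSO replicate 1 or PRT3789 replicate 3 of 6 h, or DMSO replicate 1 or 2 or PRT3789 replicate 1 or 3 of 48 h (adjusted p 0.0633 to 0.104), without the filter (0.0543) and with the times fitted apart (0.084). That of PGD ended without the filter (0.0775) and with the times fitted apart (0.0575). Groups of 3 libraries were not screened for single libraries that stand apart.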

How the results depend on the processing

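With a change of at least 1.5-fold required, 9 members were called at 48 h (0 higher, 9 lower), 9 at 72 h (1 and 8), 3 in DMSO between 6 and 48 h and 10 in PRT3789 between 6 and 48 h. The change of effect from 6 to 48 h was called in 13 members with the length trend removed, against 8 as reported and 6 to 10 under the other alternatives run. The change from 48 to 72 h was called in 1 (FTL), and DMSO from 48 to 72 h in 7, with the times fitted apart, and the latter in 1 with DESeq2. For these alternative runs the share of all genes called is not given here. With the length trend removed, CBR1 in DMSO between 6 and 48 h turned from -0.06 to 0.18 (adjusted p 0.027) and FTL in PRT3789 between these times from -0.16 to 0.22 (0.00305); neither had been called. Causes were not tested. Leaving out 1 library gave 2 to 3 called members at 6 h, 13 to 16 at 48 h, 14 to 17 at 72 h, 7 to 10 for the change from 6 to 48 h, 0 for the change from 48 to 72 h and for DMSO between these times, 12 to 19 for DMSO and 15 to 20 for PRT3789 between 6 and 48 h. Total counts moved the median of all genes by 0.11 in both comparisons of 48 with 6 h, and the share of higher calls over all genes from 29.6% to 44.3% at 6 h, from 45.9% to 64.5% in DMSO and from 49.3% to 59.5% in PRT3789. Of the members called against DMSO, 2 of 3 at 6 h, 13 of 15 at 48 h and 13 of 16 at 72 h were called in the same direction under every alternative run.

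Replicate numbers showed no consistent pairing of the libraries: in 9 pairs with equal number and time, deviations from the group means correlated at -0.237 to 0.338. With groups of 3 libraries and a length trend at 6 h, this check cannot exclude a pairing. A replicate block within each time gave 3, 16 and 17 called members at 6, 48 and 72 h, and a block over all groups 3, 15 and 16.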
